A study of Bos taurus with 24 samples.

Results

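The RAB GTPases were compared between 24 single bovine early blastocysts. Members were the genes of the deposited table whose symbol is RAB followed by digits and at most 1 letter, which gave 55 of the 24621 genes listed and leaves out regulators with longer names such as RAB3GAP1. The embryos formed 3 culture conditions of 8: in vivo derived embryos (A), embryos produced in serum-containing medium (B) and those cultured without serum (C). All were Holstein embryos sired by 1 bull, were graded by the study as early blastocysts of the best quality class, and were sequenced 1 by 1.

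The in vivo derived embryos, 5 male and 3 female, were flushed from 3 superovulated cows that had been inseminated. The embryos of both in vitro groups came from slaughterhouse oocytes fertilised and cultured at low oxygen in synthetic oviduct fluid in 3 experiments. The serum group, 3 male and 5 female, had fetal bovine serum in both the maturation and the culture medium. The serum-free group, 5 male and 3 female, had epidermal growth factor in the maturation medium and bovine serum albumin with insulin, transferrin and selenium in the culture medium. The route of collection, the way of fertilisation, the oocyte donors and the medium therefore differed together between in vivo derived and in vitro produced embryos. The in vitro harvest also began a day earlier after insemination than the flushing. The effects of these factors cannot be told apart. The labels tie no embryo to a donor cow, an in vitro experiment or a sequencing lane, so p-values measure the spread between these embryos only.

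RAB proteins are small GTPases that mark the membranes of the secretory and endocytic pathways. Each alternates between a GTP-bound form that sits on a membrane and recruits effectors such as tethers and motors, and a GDP-bound form that is carried in the cytosol by GDP dissociation inhibitors. Exchange factors switch a RAB on and GTPase activating proteins switch it off. In the blastocyst the outer trophectoderm is a polarised epithelium that sorts membrane proteins to apical and basolateral surfaces and takes up material from the outside, processes in which recycling and exocytic RABs take part. The inner cell mass and the hypoblast make up the rest of the embryo.

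Exon counts per embryo ranged from 3253051 to 9000447, and 11735 to 14732 genes had at least 1 count. The 5 embryos with fewer than 13000 detected genes were serum embryos B1, B2, B5 and B7 and serum-free embryo C3. Markers of the blastocyst's own cell types differed widely in level, and some were near 0. Keratin gene KRT8 was at 6002 to 11745 CPM (counts relative to library size, scaled between embryos by the TMM method) in the in vivo derived embryos and at 35.9 to 4082 CPM in the serum group. The trophectoderm factor CDX2 averaged 1.26 CPM in vivo, 0.522 CPM in the serum group and 0.742 CPM in the serum-free group. SOX17, a hypoblast marker, had no count in the in vivo and serum groups and averaged 0.0547 CPM in the serum-free group.

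RAB genes took 0.181% to 0.262% of all exon counts of an embryo. RAB36 and RAB44 had no count in any embryo, and 30 members had at least 1 count in every embryo. Between 40 and 49 members were detected per embryo. The tests between culture conditions took in a gene if its counts were 15 or more in each embryo of 1 of the conditions compared. This limit was reached in at least 1 culture condition by 27 of the 55 members, and in all 3 by 20. The other 26 detected members stayed under it in each condition. The limit was reached by RAB25, RAB30, RAB34 and RAB7B in the in vivo and serum-free groups but not in the serum group. It was reached by RAB27A in the in vivo and serum groups, and by RAB13 and RAB39 in the serum-free group alone. Against the serum group, RAB25, RAB30, RAB34 and RAB7B therefore entered the tests only through the group in which their counts were higher. The same held for RAB13 and RAB39 in both tests of the serum-free group, and for RAB27A between serum-free and in vivo derived embryos.

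The summed level of the RAB genes was 2396 ± 136 CPM in vivo (SD, n = 8), 2084 ± 257 CPM in the serum group and 2332 ± 270 CPM in the serum-free group. The ranges of these sums overlapped, at 2189 to 2564, 1796 to 2498 and 2154 to 2982 CPM. RAB11A, which returns internalised receptors to the cell surface, contributed 17.2% to 40.0% of an embryo's RAB counts, a share that is not corrected for gene length.

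The first comparison asked how embryos produced in serum-containing medium differed from in vivo derived embryos. RAB25, RAB15, RAB34 and RAB27A were lower in the serum group by at least 2-fold. RAB25 is the epithelial member of the RAB11 family and RAB15 acts on endosomes from which the transferrin receptor is recycled. RAB34 acts at the Golgi and in the uptake of fluid, and RAB27A docks secretory vesicles at the plasma membrane. No member was called higher in the serum group. RAB25 and RAB34 entered this test only through the in vivo group, where their counts were higher. Their calls are thus not independent of the count limit. Calls required 2-fold or more in either direction together with an edgeR adjusted p under 0.05, which 4 of the 25 members tested and 13.8% of all 7339 genes tested met. Calls with lower values in the serum group made up 7.34% of all genes tested and those with higher values 6.43%. The median log2 fold change of serum over in vivo was -0.18 over the 25 members and 0.01 over all genes tested.

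RAB25 was at 31.9 CPM in the lowest, 74.6 in the median and 107 in the highest in vivo derived embryo. The serum embryos ranged from 0 to 21.3 CPM with a median of 5.80, and B2 had no RAB25 count. Serum-free embryos lay between 15.7 and 226 CPM with a median of 38.7. Each serum embryo was thus below each in vivo derived embryo, while the serum and serum-free ranges overlapped through B8 and C1. The level of RAB25 was 76.7 ± 26.5 CPM in vivo and 7.87 ± 7.02 CPM in the serum group (SD, n = 8 each). RAB25 thus differed by a log2 fold change of -3.30 ± 0.54 (SE), or 9.87-fold, with an edgeR adjusted p of 0.000383.

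RAB15 reached 41.4, 67.7 and 83.8 CPM in the lowest, median and highest in vivo derived embryo. In the serum group the same 3 values were 5.91, 19.7 and 34.2 CPM, and in the serum-free group they were 42.1, 65.2 and 153 CPM. All 8 serum embryos lay below all embryos of both other groups. RAB25 and RAB15 were the 2 members whose serum and in vivo ranges did not overlap. Of all genes tested, 3.84% were separated in this direction. RAB25 passed the count limit in vivo but not in the serum group, so its separation is not independent of the limit. For RAB15, male embryos B5 (5.91 CPM) and B7 (6.74 CPM) were the lowest and female embryo B8 was the highest of the serum group. The remaining serum male, B1, was at 22.1 CPM, above females B2 (10.9 CPM) and B3 (17.4 CPM). The log2 fold change of serum over in vivo was -1.76 ± 0.32, or 3.38-fold lower (edgeR adjusted p = 0.000872).

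RAB34 ranged from 9.92 to 32.3 CPM in vivo with a median of 20.6, and from 2.84 to 14.2 CPM in the serum group with a median of 7.51. These ranges overlapped: B1 was above A9, A4 and A6, while B2 was the lowest of all embryos. Its log2 fold change was -1.26 ± 0.32 (edgeR adjusted p = 0.00766). RAB27A ranged from 12.4 to 30.5 CPM in vivo with a median of 22.8 and from 5.43 to 18.1 CPM in the serum group with a median of 9.87. Its ranges overlapped as well, with serum embryos B2 and B4 within the in vivo range. The log2 fold change of RAB27A was -1.04 ± 0.30 (edgeR adjusted p = 0.0143). This lay close to the 2-fold limit, and the call was lost when A3, A7, A8, B3, B5 or B6 was left out, with values of -0.999 to -0.905.

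**Figure D1:**
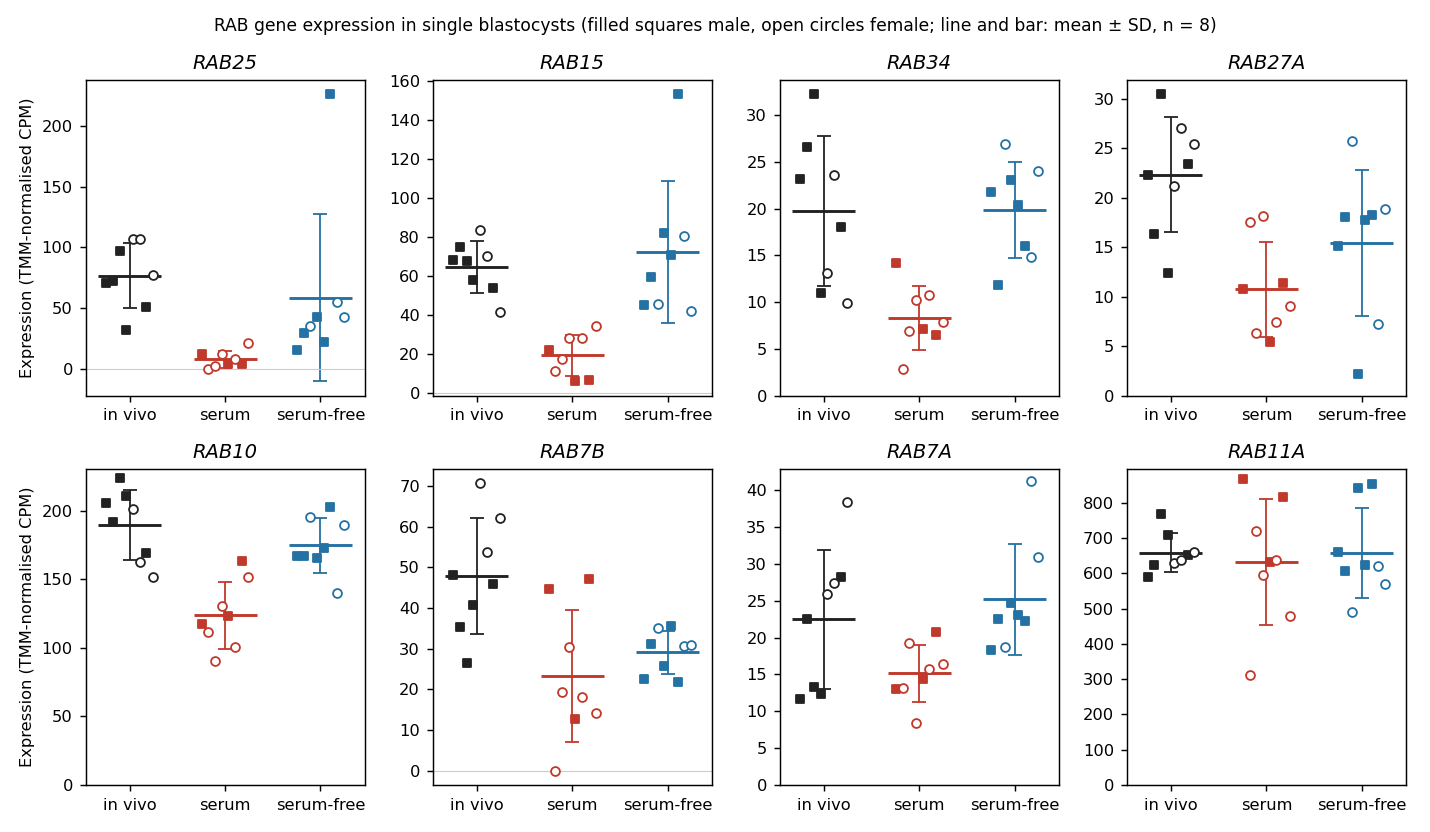
TMM-normalised CPM of RAB25, RAB15, RAB34, RAB27A, RAB10, RAB7B, RAB7A and RAB11A (vertical axes) in each of the 8 embryos of the in vivo, serum and serum-free groups. Males and females are marked, and the mean and SD are drawn for each group. All serum embryos were at or below 21.3 CPM for RAB25 and 34.2 CPM for RAB15, under the lowest in vivo derived embryos at 31.9 and 41.4 CPM, while RAB11A overlapped between all groups.

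RAB10, which directs vesicles to the plasma membrane, passed the p-value threshold with a smaller difference. It was at 151 to 224 CPM in vivo (median 197) and at 90.1 to 164 CPM in the serum group (median 120), and serum embryo B7 reached into the in vivo range. Its log2 fold change was -0.62 ± 0.14, or 1.53-fold lower (edgeR adjusted p = 0.00384). At any fold, 5 members and 28.3% of all genes tested had an adjusted p-value under 0.05, and 9 members and 41.2% of all genes had an unadjusted one under it.

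The remaining recycling genes did not pass the threshold. RAB11A ranged from 589 to 769 CPM in vivo and from 312 to 868 CPM in the serum group, with a log2 fold change of -0.06 and an approximate 95% interval of -0.37 to 0.24. Its close relative RAB11B was at 38.8 to 54.7 CPM in vivo and 6.35 to 45.0 CPM in the serum group (log2 fold change -0.69 ± 0.27, edgeR adjusted p = 0.0584, and 0.0347 without B1). RAB4A, which serves the fast return route from early endosomes, had a log2 fold change of 0.66 ± 0.31 in the other direction (edgeR adjusted p = 0.116). Among the 6 recycling genes tested, 2 were called and 5 had a negative log2 fold change.

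None of the 3 early endosome genes tested passed the threshold. RAB5A, RAB5B and RAB5C, which drive the fusion of incoming vesicles with early endosomes, had log2 fold changes of 0.06, 0.01 and -0.16. RAB5C was at 74.6 to 133 CPM in vivo and 60.0 to 105 CPM in the serum group. The RAB5 genes thus had overlapping ranges in all 3 culture conditions.

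Of the late endosome and lysosome genes, 4 were tested and only RAB34 was called. RAB7A, needed for the fusion of late endosomes with lysosomes, was at 11.7 to 38.5 CPM in vivo and 8.42 to 20.8 CPM in the serum group (log2 fold change -0.56 ± 0.28, edgeR adjusted p = 0.142). RAB7B, which acts between endosomes and the trans-Golgi network, was at 26.5 to 70.7 CPM in vivo and from 0 to 47.2 CPM in the serum group. The 8 serum embryos were widely spread for RAB7B, with no count in B2 and 44.7 and 47.2 CPM in B1 and B7. Its log2 fold change was -1.06 ± 0.51 with an edgeR adjusted p of 0.121, and without B2 it was -0.84 with an adjusted p of 0.0436. RAB9A, which carries mannose 6-phosphate receptors back to the Golgi, had a log2 fold change of 0.14 ± 0.25.

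None of the 7 genes tested that act between the endoplasmic reticulum and the Golgi or on lipid droplets was called. RAB1A, required for transport from the endoplasmic reticulum to the Golgi, was at 225 to 299 CPM in vivo and 109 to 297 CPM in the serum group (log2 fold change -0.26 ± 0.16, edgeR adjusted p = 0.236). RAB18, found on lipid droplets and the endoplasmic reticulum, had a log2 fold change of -0.13 ± 0.19. RAB2B had the largest positive log2 fold change of the members, at 0.80 ± 0.34, which did not pass the threshold (edgeR adjusted p = 0.0834). RAB8A, an exocytic gene, had a log2 fold change of -0.22 ± 0.16.

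**Figure D2:**
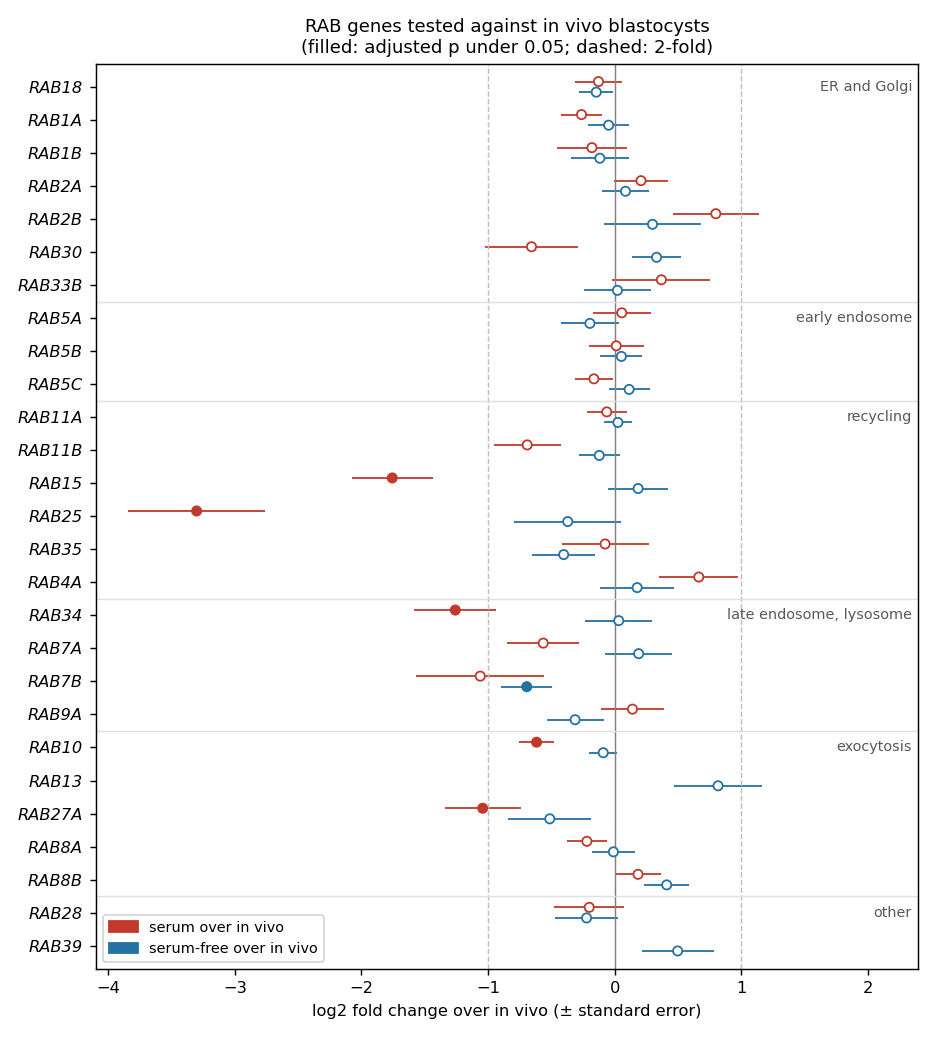
log2 fold change with its standard error (horizontal axis) for the RAB genes tested, serum over in vivo and serum-free over in vivo in separate colours, grouped by role; filled points have an edgeR adjusted p under 0.05 and dashed lines mark 2-fold. In the serum group RAB25 (-3.30), RAB15 (-1.76), RAB34 (-1.26) and RAB27A (-1.04) lay past the 2-fold line with filled points, and no serum-free point did.

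The comparison of serum-free with in vivo derived embryos uses the same in vivo derived embryos, so the 2 comparisons are not independent. None of the 27 members tested was called, whereas 2.20% of all 7314 genes tested were called, 0.588% with lower and 1.61% with higher values in the serum-free group. By the edgeR test, 3 members had an unadjusted p-value under 0.05, beside 21.5% of all genes tested, and the median log2 fold change over the members was 0.02. RAB7B had an adjusted p-value under 0.05, as did 5.82% of all genes tested. It was at 21.7 to 35.7 CPM in the serum-free group with a median of 30.8, against a median of 47.1 CPM in vivo, and the ranges overlapped. The log2 fold change of RAB7B was -0.69 ± 0.20 (edgeR adjusted p = 0.0460).

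The genes that were lower in the serum group gave the following values in the serum-free group. RAB25 had a log2 fold change of serum-free over in vivo of -0.37 with an approximate 95% interval of -1.20 to 0.46 (edgeR adjusted p = 0.661). C1, C6 and C2 were below the in vivo range, and C7, at 226 CPM, was above every other embryo. Without C7 the log2 fold change of RAB25 was -1.12 with an edgeR adjusted p of 0.0183, so that 1 member was then called. RAB15 had a log2 fold change of 0.19 (interval -0.27 to 0.65) and RAB34 of 0.03 (interval -0.48 to 0.55). RAB27A had a log2 fold change of -0.51 (interval -1.16 to 0.13), and serum-free embryos C4 and C8, at 2.22 and 7.28 CPM, were below all in vivo derived embryos.

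RAB13, which takes part in trafficking to tight junctions, had the largest positive log2 fold change of the members in the serum-free group. RAB13 entered this test only through the serum-free group, where its counts were higher, so its rank is not independent of the count limit. It was at 2.17 to 19.6 CPM in vivo with a median of 10.4, and at 9.16 to 29.2 CPM in the serum-free group with a median of 16.9. The log2 fold change of 0.82 ± 0.35 did not pass the threshold (edgeR adjusted p = 0.172). RAB11A had a log2 fold change of 0.03 (interval -0.19 to 0.25), and RAB10 of -0.09 ± 0.11.

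The 2 in vitro groups were also compared with each other, a comparison that shares its embryos with those above. RAB15, RAB25 and RAB34 were lower in the serum than in the serum-free group. These 3 calls among 27 members tested stand beside 8.91% of all 7181 genes tested, or 5.36% with lower and 3.55% with higher values in the serum group. RAB15 had a log2 fold change of serum over serum-free of -1.95 ± 0.37 (edgeR adjusted p = 0.00458), and its ranges did not overlap, as was the case in this direction for 1.42% of all genes tested. RAB25 had a log2 fold change of -2.95 ± 0.67 (edgeR adjusted p = 0.0100), which was -2.15 without C7. RAB34 had a log2 fold change of -1.29 ± 0.30 (edgeR adjusted p = 0.0101). RAB25 and RAB34 entered this test only through the serum-free group, so their calls are not independent of the count limit.

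RAB10 and RAB7A differed between the media by less than 2-fold. RAB10 was at 140 to 202 CPM in the serum-free group with a median of 170, and its log2 fold change was -0.53 ± 0.15 (edgeR adjusted p = 0.0217). RAB7A was at 18.3 to 41.2 CPM in the serum-free group with a median of 22.8, against a median of 15.1 CPM in the serum group, and its log2 fold change was -0.76 ± 0.25 (edgeR adjusted p = 0.0460). At any fold, 5 members and 16.3% of all genes tested had an adjusted p-value under 0.05, and 6 members and 33.1% of all genes an unadjusted one.

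Markers of the trophectoderm were compared in the same way. Of 12 listed trophectoderm markers, 10 were in the table and 8 were tested. GATA2, GATA3, KRT8, KRT18, DAB2 and SFN were called lower in the serum than in the in vivo derived embryos, beside 7.34% of all genes tested. Between serum-free and in vivo derived embryos 0 of the 8 were called, beside 2.20% of all genes tested. Between the media 6 were called lower in the serum group, beside 5.36% of all genes tested. The summed level of the markers was 8282 to 15684 CPM in vivo, 334 to 5896 CPM in the serum group and 5864 to 28813 CPM in the serum-free group. KRT8 alone averaged 9058 CPM of a mean in vivo sum of 11935 CPM. TFAP2C and TEAD4, also listed as trophectoderm markers, had log2 fold changes of 0.32 and 0.71 for serum over in vivo and were not called.

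In both in vitro groups the same embryos were at the ends of the range for RAB25 and for KRT8. B2 was the lowest serum embryo for both, with no RAB25 count and KRT8 at 35.9 CPM, and B8 was the highest, at 21.3 and 4082 CPM. In the serum-free group C1 was the lowest for both, at 15.7 and 3822 CPM, and C7 the highest, at 226 and 22365 CPM. In the in vivo group A4 was the lowest for both, at 31.9 and 6002 CPM, but the upper ends differed. A6 had the highest RAB25, at 107 CPM with KRT8 at 7839 CPM, and A2 the highest KRT8, at 11745 CPM with RAB25 at 72.1 CPM. GATA3 had the same ends as RAB25 in the serum-free group and was also lowest in B2 of the serum group. Its highest serum embryo was B1, at 57.8 CPM, and its highest in vivo embryo was A4, at 110 CPM. In bulk RNA of a whole embryo, fewer cells of a type and less RNA of a gene per cell cannot be told apart. The part of the trophectoderm markers in the values of RAB25, RAB15, RAB34 and RAB27A was not tested.

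**Figure D3:**
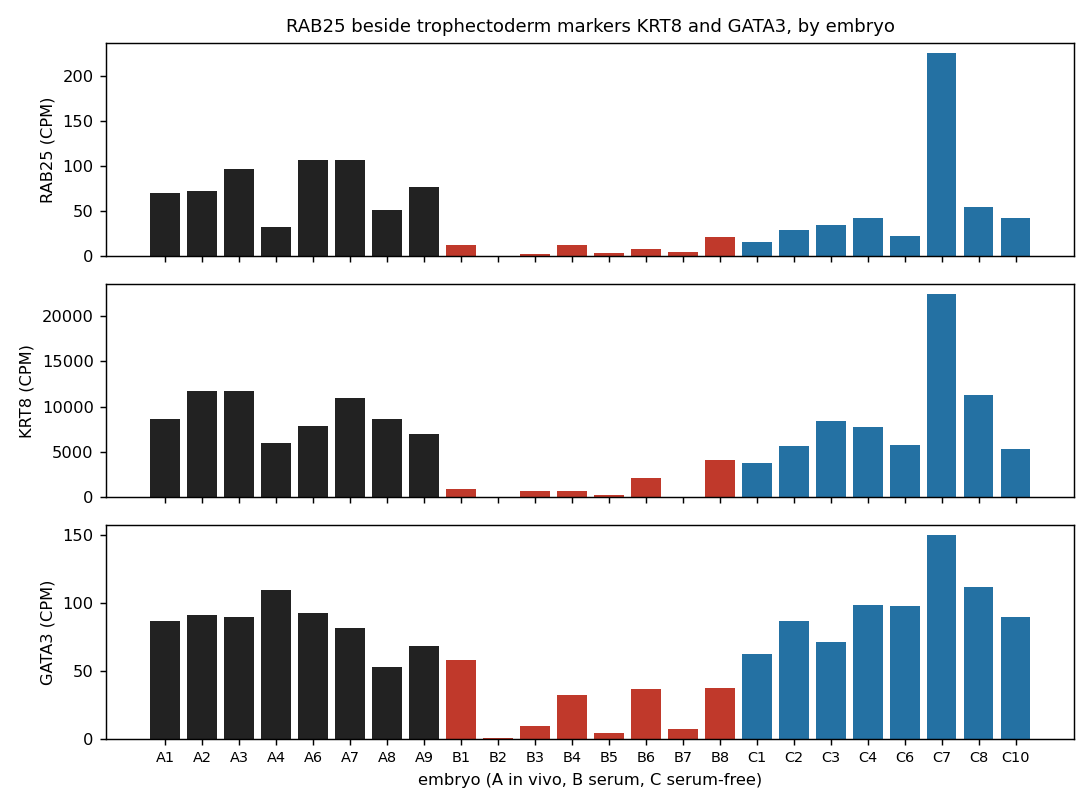
RAB25 and the trophectoderm markers KRT8 and GATA3 in TMM-normalised CPM (vertical axes, starting at 0) in each of the 24 embryos, coloured by culture condition. RAB25 and KRT8 were both lowest in B2 (0 and 35.9 CPM) and highest in C7 (226 and 22365 CPM). GATA3 was also lowest in B2 and highest in C7, but A4, lowest in vivo for RAB25, was highest in vivo for GATA3 (110 CPM).

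Of the hypoblast list, PDGFRA and FN1, 2 of 4 tested genes, were called lower in the serum than in the in vivo derived embryos. Of all genes tested, 7.34% were called in this direction. GATA6 and COL4A1, with log2 fold changes of 0.16 and -1.16, were not called. The list summed to 4708 to 7536 CPM in vivo and 31.5 to 3053 CPM in the serum group. In the serum-free group it summed to 3362 to 6005 CPM. FN1 alone averaged 5458 CPM of a mean in vivo sum of 5953 CPM. Of the inner cell mass list, SOX2, 1 of 6 tested genes, was called higher in the serum group, beside 6.43% of all genes tested. The sums of this list were 882 to 1210, 469 to 1251 and 660 to 847 CPM in the same groups. Markers of cells outside the embryo were summed as well. Cumulus and granulosa markers summed to between 5.19 and 54.3 CPM per embryo. Uterine and oviduct epithelium markers summed to between 1.13 and 17.7 CPM, and blood and immune markers to between 0.888 and 10.6 CPM. B2 had the highest of the cumulus and granulosa sums and of the uterine and oviduct epithelium sums.

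The calls were also made without the 5 embryos that had fewer than 13000 detected genes, which left 4 serum embryos, all female. The in vivo group kept its 5 males and 3 females and the serum-free group its 5 males, and sex was not a covariate. Culture and sex thus differed together in these fits, and their effects cannot be told apart. The share of all genes called without these embryos is not given here. Between in vivo derived and serum embryos, RAB25 then had a log2 fold change of -2.83 (edgeR adjusted p = 0.000761) and RAB15 of -1.27 (adjusted p = 0.00123). RAB34 was at -1.14 (adjusted p = 0.0325) and RAB27A at -1.13 (adjusted p = 0.0254). Between the serum and serum-free groups, only RAB15 was still called, and RAB25 was at -2.56 with an edgeR adjusted p of 0.0770.

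The sexes were not evenly spread over the groups, so male and female embryos were compared with culture condition as a covariate. Here and for the interaction below, the limit of 15 counts applied to each embryo of 1 group of the same culture and sex, which RAB14, RAB20 and RAB24 reached as well. None of the 30 members tested was called by edgeR, and 3 had an unadjusted p-value under 0.05, as did 11.9% of all 8710 genes tested. Of all these genes 0.873% were called, and 2.20% had an adjusted p-value under 0.05 at any fold. RAB9A averaged 43.2 CPM in male and 63.8 CPM in female embryos, a log2 fold change of male over female of -0.54 ± 0.17 that did not pass the threshold (edgeR adjusted p = 0.131). RAB25 had a log2 fold change of -0.15 ± 0.48 and RAB15 of -0.16 ± 0.28.

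The difference between the sexes in the response to culture was tested as an interaction. With in vivo and serum embryos, edgeR called 0% of all 8446 genes and none of the 30 members tested, 2 of which had an unadjusted p-value under 0.05, beside 5.16% of all genes. With in vivo and serum-free embryos, 0% of all 8425 genes and none of the 30 members were called, and 1 had an unadjusted p-value under 0.05, beside 6.59% of all genes. Within female embryos alone, RAB25 had a log2 fold change of serum over in vivo of -3.48 and RAB15 of -1.44, with edgeR adjusted p-values of 0.101 and 0.107. Within the 5 and 3 male embryos, RAB25 was at -3.34 (edgeR adjusted p = 0.00260) and RAB15 at -2.52 (adjusted p = 0.00410), and both were called. In the same male embryos RAB34 was at -1.30 (adjusted p = 0.0788) and RAB27A at -1.23 (adjusted p = 0.0824). Serum males B1, B5 and B7 had 12390, 11735 and 12267 detected genes. Serum female B2 had 12348, and the other serum females had 13559 to 14732. Sex and the number of detected genes thus differed together in the serum group, and their effects cannot be told apart. The share of all genes called within each sex is not given here.

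The spread between embryos differed between the groups. The SD of log2(CPM + 1) over the 8 embryos was larger in the serum than in the in vivo group for 25 of the 27 members that reached the limit (92.6%), as it was for 82.9% of 7557 genes. Its median over the members was 0.40 in vivo, 0.56 in the serum group and 0.40 in the serum-free group. RAB7B had an SD of 1.77 in the serum group and 0.44 in vivo, and RAB25 had 1.42 and 0.58. Without B2, which had no count of either gene, the SD in the serum group was 0.74 for RAB7B and 1.01 for RAB25. RAB7A was 1 of the 2 exceptions, with 0.38 in the serum group and 0.61 in vivo, and RAB34, at 0.59 in both groups, was the other. RAB11A had 0.47 in the serum group, against 0.12 in vivo and 0.27 in the serum-free group. In the serum-free group the SD was above that of the in vivo group for 59.3% of the members and 68.6% of the 7557 genes.

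**Figure D4:**
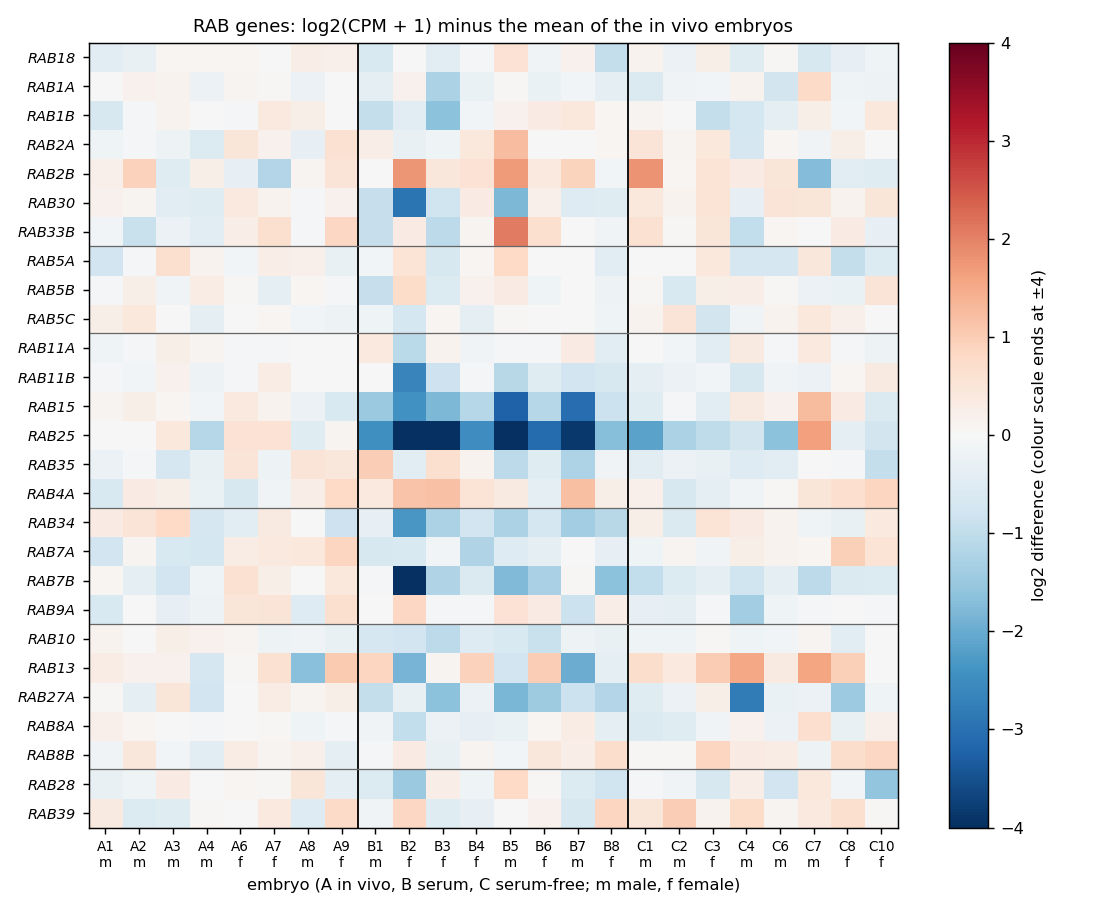
log2(CPM + 1) of the RAB genes that reached the count limit (rows, grouped by role) in each embryo (columns), minus the mean over the in vivo group, in red where higher and blue where lower, with the colour scale ending at ±4. The serum columns are blue for RAB25 and RAB15 in all 8 embryos and vary in depth. RAB25 in B2 and B3 and RAB7B in B2 were past the end of the scale.

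Members under the count limit in each culture condition are given by their counts. Among the secretory RABs, RAB27B had a count in 1 in vivo, 1 serum and 2 serum-free embryos, and RAB3A ranged from 0 to 37 counts. RAB17, an epithelial RAB, had 0 to 27 counts in vivo, 0 to 5 in the serum group and 2 to 28 in the serum-free group. RAB31 had 0 to 12, 0 to 2 and 0 to 25 counts in the same groups. RAB9B had no count in any in vivo derived embryo, up to 27 counts in the serum group, in B5, and up to 1 in the serum-free group. RAB17, RAB31, RAB9B, RAB3A and RAB27B were chosen after their values were seen and were not tested between culture conditions under the limit. With no limit beyond 1 count, edgeR called 6 members between in vivo derived and serum embryos, RAB9B and RAB31 among them. In the serum group RAB31 had 3 counts in total. B5, the embryo with the most exon counts, held 27 of the 42 serum counts of RAB9B. The share of all genes called at that setting is not given here, so these calls have no background beside them.

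The machinery that controls RAB proteins was described from lists of 149 genes, of which 141 were in the table. Between in vivo derived and serum embryos 79 were tested, and 8 were called lower and 3 higher in the serum group, 11 in all, about as often as the 13.8% of all genes tested. Of 22 exchange factors tested, 5 were lower and 2 higher, and of 33 effectors, 2 were lower and 1 higher. None of the 18 GTPase activating proteins tested was called. The median log2 fold change of serum over in vivo was -0.17 over the 79 genes. Of the 6 genes for prenylation and membrane delivery tested, RABAC1, which helps release RAB proteins from the dissociation inhibitor at membranes, was called.

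RABAC1 was at 55.3 to 124 CPM in vivo and 11.2 to 61.0 CPM in the serum group, a log2 fold change of -1.34 ± 0.29 (edgeR adjusted p = 0.00250). SBF2, an exchange factor, was at 13.8 to 26.9 CPM in vivo and 2.61 to 16.5 CPM in the serum group (log2 fold change -1.76 ± 0.34, edgeR adjusted p = 0.00130). HPS4, part of the exchange factor for RAB32 and RAB38, was higher in the serum group, at 7.14 to 29.3 CPM against 1.90 to 9.63 CPM in vivo (log2 fold change 1.61 ± 0.36). The ranges of these 3 genes overlapped between the groups. The effector RUFY3 and the exchange factors DENND1C and TRAPPC9 had log2 fold changes of -1.83, -1.76 and -1.73.

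Between serum-free and in vivo derived embryos, 1 of 76 genes of these lists was called: RIN2, an exchange factor for RAB5, which was lower in the serum-free group with a log2 fold change of -1.02 ± 0.24 (edgeR adjusted p = 0.0170). Of all genes tested there, 2.20% were called. Between the 2 media, SBF2 and RABAC1 were lower and HPS4 was higher in the serum group, 3 calls among 69 genes tested where 8.91% of all genes tested were called. The dissociation inhibitor GDI2, which returns RAB proteins of all roles from membranes to the cytosol, was at 882 to 1136 CPM in vivo and 527 to 1071 CPM in the serum group. Its log2 fold change of -0.34 ± 0.12 had an edgeR adjusted p of 0.0455 but stayed under 2-fold. The prenyl transferase subunit RABGGTB had a log2 fold change of 0.50 and did not pass the threshold, and CHM, the escort protein, was under the count limit.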

How the data were processed

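RNA of single blastocysts was amplified and sequenced as unstranded paired reads. After trimming, the authors aligned the reads to the bovine assembly UMD 3.1 in CLC Genomics Workbench, kept exonic fragments with a single match, and deposited their raw counts for each gene and embryo, not normalised. Fragments that fit 2 RAB paralogs equally well were thus left out. In the assembly ARS-UCD2.0 all 55 members were matched by name (RAB39 as a synonym of RAB39A) and 20 overlapped the span of another annotated gene. Whether exons were shared in UMD 3.1 was not examined, and the libraries do not tell strands apart. RAB10, RAB15, RAB27A, RAB7B, RAB13, RAB1A and RAB5A were among them.

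The count tests ran in R 4.3.3 with edgeR 4.0.16, using TMM scaling, the quasi-likelihood test in fits of the groups compared, and Benjamini-Hochberg adjustment over all genes tested. The limit of 15 counts, the call rule and CPM values are given with the results. Standard errors were approximated as the log2 fold change over the root of F, and intervals as 1.96 of them to either side. A floor of 3 counts amounted to at most 9.22e-05% of an embryo's counts (counting error only, since fragments carried no molecular identifiers). Alternatives were edgeR's exact test, DESeq2 1.42.0, other scaling, other count limits, 1 fit over all 24 embryos, sex as a covariate, each sex alone, the embryo number as a block, each embryo left out, and, added after seeing the data, leaving out embryos with few detected genes.

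The members and gene lists were chosen with earlier results of these data known. Named members were those called or with an adjusted p under 0.05 in any comparison, the 3 largest fold changes in each culture comparison, the 5 with the highest mean CPM, and 15 members listed by role; of the controlling genes, the 6 called genes with the largest change per comparison and GDI2, CHM and RABGGTB; 1 further listed gene is not reported here. RAB2B was chosen after its values were seen. Sequences and gene lengths were not used here, so levels were not compared between genes.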

Additional observations from a re-analysis of the deposited data

Results flagged for a closer look

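Within the 18 named RAB genes and 3 culture conditions, 5 of 54 sets of 8 embryos held 1 embryo that stood apart from the other 7 by Dixon's test on log2(CPM + 1), and chance gives about 1 in 20. On the CPM scale 2 of the 5 stood apart, RAB25 in C7 and RAB9A in C4. RAB25 in serum-free embryo C7 was at 226 CPM, and the nearest serum-free embryo was at 54.7 CPM. C7 also had the highest KRT8 level of all embryos, as given above. RAB7B had 0 CPM in serum embryo B2, where the nearest serum embryo was at 12.8 CPM. RAB11B was at 6.35 CPM in the same embryo, B2, with the nearest at 20.0 CPM. RAB1A was at 109 CPM in serum embryo B3, with the nearest at 203 CPM. RAB9A was at 19.2 CPM in serum-free embryo C4, with the nearest at 39.3 CPM. What set these embryos apart was not tested.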

How the results depend on the processing

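Between in vivo derived and serum embryos, the 4 calls became 2 with 15 counts required in every embryo of both groups (RAB15 and RAB27A, since RAB25 and RAB34 were then not tested), 2 in male embryos, 0 in female embryos and 2 with the embryo number as a replicate block. They became 6 with no limit beyond 1 count and 5 without the embryos under 13000 genes, where RAB7B was added, and 3 with library totals, where RAB27A was lost. Leaving out each embryo gave 3 to 4, RAB27A being the gene lost. RAB11B had an adjusted p under 0.05 in 4 of 12 other settings. Between the serum and serum-free groups, the 3 calls became 1 with the limit in both groups, 1 in male embryos, 0 in female embryos, 0 with the block and 1 without the embryos under 13000 genes, and leaving out each embryo gave 3 to 4. In female embryos 6 and 5 members had an unadjusted edgeR p-value under 0.05, and with the block 6 did between the media. The shares of all genes in these settings are not given here. A change in the number of members can thus not be told apart from a change over all genes. With library totals, 979 genes were called between in vivo derived and serum embryos, against 1011 in the main fit. Against serum-free embryos the count of 0 became 1 without C7 (range 0 to 1), and the 1 controlling gene called became 0 with library totals as the only scaling. The cause was not tested, beyond the smaller groups and the genes no longer tested. The embryo numbers are labels only: over 7 shared numbers the deviations of same-numbered in vivo and serum embryos correlated at -0.127 to 0.0875, and 1 of 7 correlated best with its own number. RAB7B against serum-free embryos and RAB7A between the media lost an adjusted p under 0.05 in most alternatives, with values up to 0.491 and 0.401. No named gene past its threshold turned its direction. Library totals moved the median log2 fold change of all genes from 0.01 to 0.08 at most, and the share of all calls that were higher in the serum than in the in vivo derived embryos from 46.7% to 54.2%. At the depth of about 3253051 counts or more per embryo, 26 detected members stayed under the count limit. Whether depth or low expression kept them under it was not tested. These members were not tested between culture conditions at that limit.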
